A study of Mus musculus with 24 samples.

Results

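The 6 CXC chemokine genes Cxcl9, Cxcl10, Cxcl11, Cxcl12, Cxcl14 and Cxcl16 were followed in mouse pulmonary fibroblasts exposed to recombinant mouse cold-inducible RNA-binding protein (rmCIRP), recombinant mouse transforming growth factor beta 1 (rmTGF-β1), or both. The 6 genes were taken by name from the 55291 gene names of the count tables, and all 6 were present in every table. Cxcl9, Cxcl10, Cxcl11 and Cxcl16 were treated as the inducible members and Cxcl12 and Cxcl14 as the stromal members. RNA-Seq was carried out on 24 libraries in 8 conditions, with 3 libraries for each of 4 treatments in WT fibroblasts and in fibroblasts labelled TLR4-/-. All cells were isolated as pulmonary fibroblasts from C57BL/6 mice aged 4 to 8 weeks. The cells of a group came from 3 to 4 pooled lungs. They were cultured to passage 3 to 6, held overnight in Opti-MEM, and then treated for 24 h. The treatments were PBS, rmCIRP at 1 μg/ml, rmTGF-β1 at 2 ng/ml, or both proteins at these doses. The labels do not say that replicate libraries came from separate cultures or animals, so the p-values measure only the spread between these libraries, which may be technical.

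CXC chemokines are small secreted proteins that bind receptors on leukocytes and other cells and steer their migration. Cxcl9, Cxcl10 and Cxcl11 are interferon-induced ligands of Cxcr3, a receptor of activated T cells and NK cells, and their transcription is driven by STAT and IRF factors together with NF-κB. Cxcl16 is made as a transmembrane protein that binds Cxcr6 and can be shed by the proteases Adam10 and Adam17. Cxcl12 is the homeostatic ligand of Cxcr4 and of the scavenging receptor Ackr3, and in lung it is a product of stromal cells. Cxcl14 is a homeostatic chemokine of epithelial and stromal cells. The genes for Cxcl9, Cxcl10 and Cxcl11 lie beside one another in the mouse genome, and Cxcl11 carries a frameshift in the C57BL/6 strain.

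Of the 6 members, 4 have an upstream window in the RefSeq promoter table for GRCm38.p6. The 250 bases before the annotated start are shown because the inducible and stromal members moved in opposite directions with rmCIRP in WT cultures. The windows are chr5:92348890-92349139 on the minus strand for Cxcl10, chr13:56296552-56296801 on the minus strand for Cxcl14, chr5:92328080-92328329 on the minus strand for Cxcl9, and chr6:117168285-117168534 on the plus strand for Cxcl12. Each is written 5′ to 3′ on the strand of its gene. Capitals mark matches, on either strand, to the core of the interferon-stimulated response element (ISRE core: GAAA, any 2 bases, GAAA), the gamma-activated sequence TTCNNNGAA, or the NF-κB consensus.
Cxcl10: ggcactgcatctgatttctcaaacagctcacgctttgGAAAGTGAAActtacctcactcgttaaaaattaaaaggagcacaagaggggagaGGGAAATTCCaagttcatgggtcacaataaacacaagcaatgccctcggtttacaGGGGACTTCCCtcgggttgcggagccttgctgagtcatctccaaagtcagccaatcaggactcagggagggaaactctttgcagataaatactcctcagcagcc
Cxcl14: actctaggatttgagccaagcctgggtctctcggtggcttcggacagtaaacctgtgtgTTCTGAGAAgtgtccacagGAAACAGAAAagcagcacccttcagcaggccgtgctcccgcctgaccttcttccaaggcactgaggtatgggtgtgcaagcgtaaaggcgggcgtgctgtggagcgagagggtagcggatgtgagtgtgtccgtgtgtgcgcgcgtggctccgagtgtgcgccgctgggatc
Cxcl9: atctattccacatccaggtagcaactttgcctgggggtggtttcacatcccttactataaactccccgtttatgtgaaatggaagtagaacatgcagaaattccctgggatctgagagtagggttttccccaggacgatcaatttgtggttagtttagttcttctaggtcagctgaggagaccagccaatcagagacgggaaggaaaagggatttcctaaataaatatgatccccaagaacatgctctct
Cxcl12: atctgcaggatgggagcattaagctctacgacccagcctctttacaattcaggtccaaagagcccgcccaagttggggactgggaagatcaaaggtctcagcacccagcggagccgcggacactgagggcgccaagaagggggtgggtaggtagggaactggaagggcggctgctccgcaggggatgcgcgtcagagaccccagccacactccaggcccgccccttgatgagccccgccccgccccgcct

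The Cxcl10 window holds 1 match to the ISRE core, at bases -213 to -204 from the start, and NF-κB consensus matches at -159 to -150 and, overlapping one another, between -104 and -94. The window of Cxcl14, a stromal member, also holds 1 ISRE core, at -172 to -163, and 1 TTCNNNGAA match, at -191 to -183. No match to any of the 3 motifs is present in the Cxcl9 or Cxcl12 window. Of 32851 windows of the same length, 2.98% hold the ISRE core, 7.02% hold TTCNNNGAA, 7.25% hold the NF-κB consensus, and 0.164% hold both the ISRE core and the NF-κB consensus, as the Cxcl10 window does. These are matches of letters, and binding was not measured. Cxcl11 and Cxcl16 had no entry in that table.

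Sequencing depth was 29853346 to 39664606 reads on genes per library. Tlr4 was first examined, since the genotype label rests on it. It had 629.7 to 801.7 normalized counts (counts divided by DESeq2 size factors) in the 12 WT libraries and 701.6 to 940.9 in the 12 libraries labelled TLR4-/-, so its mRNA was not lower under that label, and the libraries are called "labelled TLR4-/-" throughout. Reads are summed over each gene, so exons cannot be told apart. The third library labelled TLR4-/- with both proteins stood apart from its replicates, and results that rest on it are also given without it. Fibroblast markers were present at a summed 20230 to 27010 CPM (counts scaled by library size) in WT and 20400 to 25620 CPM in libraries labelled TLR4-/-. Macrophage markers (13 genes) summed to 2332 to 2873 CPM in WT and 9541 to 11990 CPM in libraries labelled TLR4-/-. In bulk RNA, a change in the number of cells of a type and a change in RNA per cell cannot be told apart. The cell type that expressed each member was not measured, so levels and changes are those of whole cultures.

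With PBS alone, most reads of the 6 genes in WT libraries were of the stromal members. To compare levels between genes, CPM was divided by the exon length of each gene in kilobases. This length joins all annotated exons of a gene, 8176 bases for Cxcl12 and 1827 for Cxcl14. The transcripts present need not carry all of them, so the order of genes depends on this choice. On this scale the level of Cxcl14 was 184 ± 19.9 CPM per kb (SD, n = 3), that of Cxcl12 was 110.3 ± 3.64, that of Cxcl16 was 14.4 ± 1.98 and that of Cxcl10 was 0.487 ± 0.101. Cxcl14 thus made up 59.4% of the summed length-adjusted level of the 6 genes, Cxcl12 35.8%, Cxcl16 4.65% and Cxcl10 0.157%. Without the adjustment the order of the first 2 was reversed, at 30434 normalized counts for Cxcl12 and 11357 for Cxcl14. With rmCIRP the length-adjusted composition shifted: the share of Cxcl10 was 29.7% ± 7.40, near that of Cxcl14 at 33.5% ± 5.11 and above that of Cxcl12 at 22.6% ± 1.79, while Cxcl16 took 14.01% ± 0.73. In normalized counts Cxcl10 stayed below Cxcl12, at 8854 against 24136. With both proteins the share of Cxcl10 was 18.4% ± 2.42. Cxcl9 and Cxcl11 were low even with rmCIRP, at mean levels of 0.274 and 0.149 CPM per kb, against 117 ± 36.5 CPM per kb for Cxcl10. In libraries labelled TLR4-/- with PBS, Cxcl14 held 62.6%, Cxcl12 27.4%, Cxcl16 9.29% and Cxcl10 0.700% ± 0.626 of the sum. That Cxcl10 share rests on the third library, at 1.421% against 0.384% and 0.295% in the others.

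**Figure D1:**
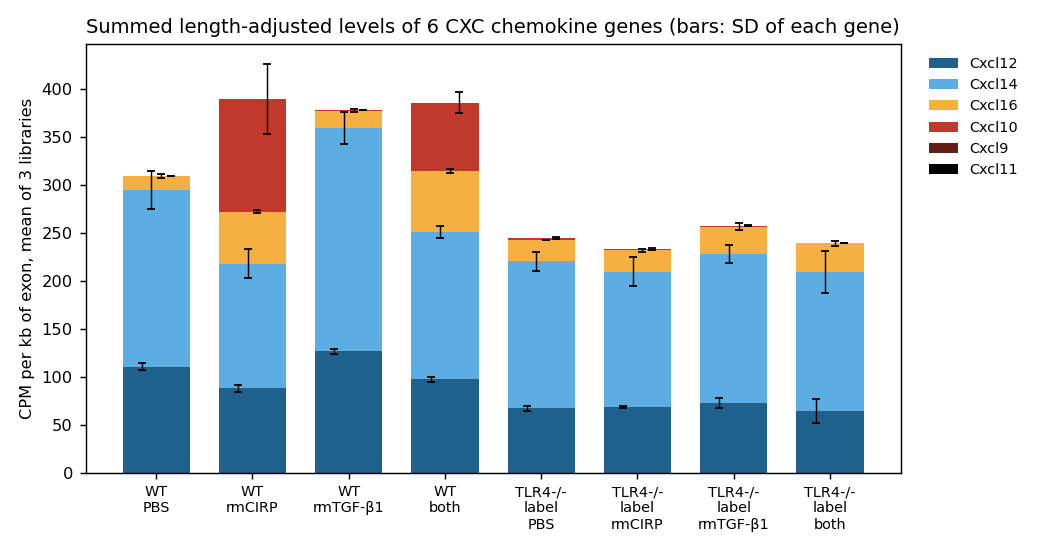
Stacked bars give the mean length-adjusted level (CPM per kb of exon, 3 libraries per condition) of the 6 genes in the 8 conditions, and the error bars give the SD of each gene at the top of its segment. The Cxcl10 segment is visible with rmCIRP and with both proteins in WT, at 117 and 71.0 CPM per kb, and it is at most 1.68 CPM per kb in the other conditions.

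The question of the first comparison was how WT fibroblast cultures respond to rmCIRP. Cxcl10 and Cxcl16 rose, the stromal members Cxcl12 and Cxcl14 fell, and Cxcl9 and Cxcl11 had more reads with rmCIRP than with PBS. Differences were tested with edgeR's quasi-likelihood test on all 24 libraries, with Benjamini-Hochberg adjustment over 16258 genes and a threshold of 0.1. In this comparison 43.9% of all genes tested passed the threshold, 19.8% higher and 24.1% lower, so passing it was common, and the members are described by the size of their change. Cxcl10, Cxcl12, Cxcl14 and Cxcl16 all passed, and for these 4 no library with rmCIRP overlapped a library with PBS, which held for 50.8% of all genes. Cxcl9 and Cxcl11 reached the test only through the WT conditions with rmCIRP, in which they are high, so they are described by their reads and are not counted as passing.

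Cxcl10, a ligand of Cxcr3, showed the largest log2 fold change among the 4 members with more than a few reads in every library. It had 30.8, 45.9 and 34.3 normalized counts in the WT libraries with PBS and 8530.5, 6249 and 11783 with rmCIRP. Every rmCIRP library was far above every PBS library, and the third was the highest of the rmCIRP libraries. The log2 fold change was 7.89 (SE 0.45, edgeR adjusted p = 3.83e-12), a fold of 238. Some exon bases of Cxcl10 (133 of 2252) lie opposite an exon of Art3, and the strand setting of the counting is not given in the sources used here.

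Cxcl9 and Cxcl11, the other ligands of Cxcr3, had almost no reads without rmCIRP. Cxcl9 had 0, 0 and 1 read in the WT libraries with PBS and 19, 20 and 43 with rmCIRP. The ratio of its summed counts, scaled for depth, was 84.5 with an exact 95% interval of 14.7 to 3380, which covers counting error only. Cxcl11 had 0, 0 and 1 read with PBS and 17, 13 and 26 with rmCIRP. Its ratio of summed counts was 57.7 (exact 95% interval 9.94 to 2320). In each gene the lowest library with rmCIRP was above the highest with PBS, and in each the third rmCIRP library was the highest, as for Cxcl10. The annotation lists Cxcl11 as a pseudogene in this strain's reference, and 1582 of its 3794 exon bases lie opposite exons of Gm2673, so its reads are uncertain in origin.

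Cxcl16, the transmembrane ligand of Cxcr6, was already expressed with PBS and was higher in every rmCIRP library than in any PBS library. Its normalized counts were 1242.5, 1657 and 1519.6 with PBS and 5634, 5318 and 5620.0 with rmCIRP. The rmCIRP libraries lay close together and well above the PBS libraries. The log2 fold change was 1.90 (SE 0.09, edgeR adjusted p = 2.25e-13), a fold of 3.74. A stretch of 552 of the 3021 exon bases of Cxcl16 lies opposite exons of Zmynd15.

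**Figure D2:**
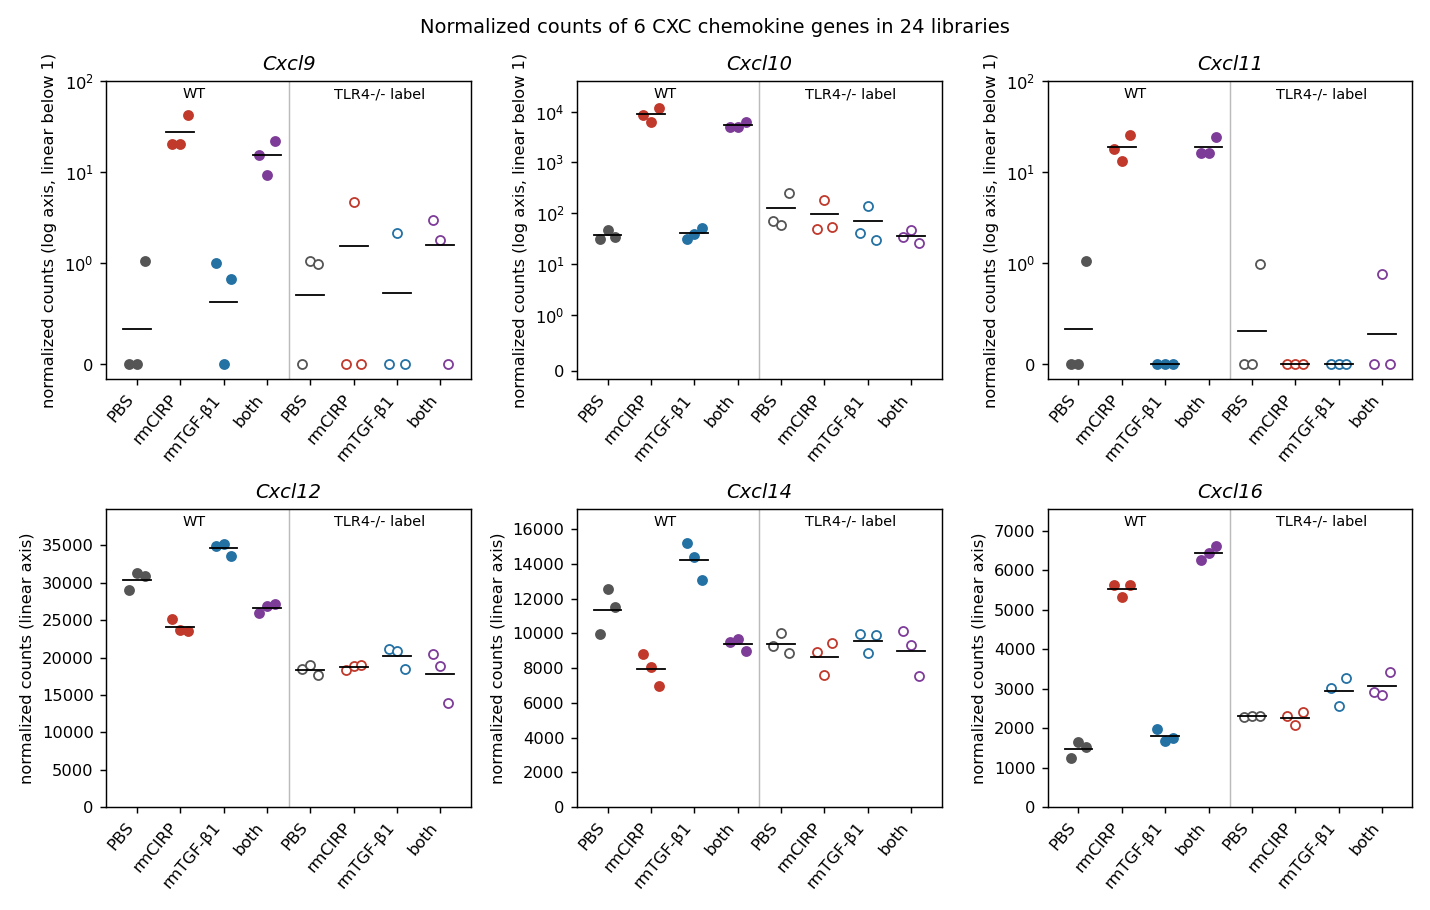
Points give the normalized counts of each of the 6 genes in the 24 libraries, filled for WT and open for libraries labelled TLR4-/-, and horizontal lines give the mean of 3 libraries. Cxcl9, Cxcl10 and Cxcl11 are on a log axis that is linear below 1, and the other genes are on a linear axis from 0. The inducible genes stand high in the 6 WT libraries with rmCIRP (Cxcl10 from 4863 to 11783, Cxcl16 from 5318 to 6606), and the stromal genes stand lower there than in the other WT libraries (Cxcl12 from 23557 to 27104 against 29076 to 35217).

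The stromal members fell, by much smaller amounts. Cxcl12, the ligand of Cxcr4 and Ackr3, had 29076, 31294 and 30932 normalized counts with PBS and 25163, 23688 and 23557 with rmCIRP. Its log2 fold change was -0.34 (SE 0.08, edgeR adjusted p = 0.00243), and the level fell by 21%. Cxcl14 had 9981, 12572 and 11518 normalized counts with PBS and 8832, 8077 and 7000.1 in the treated libraries. All 3 rmCIRP libraries were below the lowest PBS library, and the third was the lowest for both genes. The log2 fold change of Cxcl14 was -0.52 (SE 0.10, edgeR adjusted p = 0.00032), and it fell by 30.1%. Over all genes tested the median log2 fold change was -0.02. Of the 10 fibroblast markers, 6 also fell and 2 rose (median -0.25), and of the 13 macrophage markers 5 rose and 8 fell (median -0.32). Among all genes, 24.1% fell and 19.8% rose. The part of these markers in the changes of the members was not tested.

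The second comparison asked how rmTGF-β1 alone acts in WT fibroblast cultures. It left the ligands of Cxcr3 near their PBS levels and was accompanied by small rises of Cxcl14 and Cxcl16. Among all genes tested, 12.4% passed the threshold, 5.77% higher, and 2 of the 6 members passed it, both higher. Libraries did not overlap for Cxcl12, Cxcl14 and Cxcl16, and for 29.7% of all genes. Cxcl14 had 15207, 14416 and 13059 normalized counts with rmTGF-β1, all above the highest PBS library, with a log2 fold change of 0.32 (SE 0.10, edgeR adjusted p = 0.05). Cxcl16 had 1972, 1671 and 1762 normalized counts, a log2 fold change of 0.29 (SE 0.09, edgeR adjusted p = 0.0572). Both calls were near the threshold, and each was lost when any of 4 of the 6 libraries was left out, with log2 fold changes of 0.25 to 0.41 for Cxcl14 and 0.19 to 0.39 for Cxcl16. Cxcl12 had 34946, 35217 and 33603 normalized counts, above every PBS library, but its log2 fold change of 0.18 (SE 0.08) did not pass the test (edgeR adjusted p = 0.201). Cxcl10 had 31.3, 39.0 and 50.7 normalized counts, overlapping the PBS libraries, with a log2 fold change of 0.14 and a 95% interval of -1.63 to 1.91. Cxcl9 had 1, 0 and 1 read with rmTGF-β1 and Cxcl11 had none in any of the 3 libraries, which allows up to 3 reads over the group, or 0.0283 CPM, so no fold is given for either.

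Adding rmCIRP to rmTGF-β1 in WT fibroblast cultures moved the members in the same directions as adding rmCIRP to PBS. Cxcl10, Cxcl16, Cxcl12 and Cxcl14 passed the test, the first 2 higher and the others lower, where 42.2% of all genes passed, 20.5% higher and 21.7% lower. Libraries did not overlap for any of these 4, and for 50% of all genes. Cxcl10 had 4863, 4892 and 6319.8 normalized counts with both proteins, a log2 fold change of 7.02 over rmTGF-β1 alone (SE 0.44, edgeR adjusted p = 2.33e-11). Cxcl16 had 6264.5, 6446 and 6606 normalized counts, a log2 fold change of 1.83 (SE 0.09, edgeR adjusted p = 3.52e-13). The Cxcl16 libraries lay within a narrow range, and the third library was the highest for both genes. Cxcl9 had 15, 8 and 20 reads, a ratio of summed counts of 24.8 (exact 95% interval 6.46 to 211). Cxcl11 had 16, 14 and 22 reads against none, at least 20-fold higher when set against 3 reads over the group. Cxcl12 had 25913, 26920 and 27104 normalized counts, a log2 fold change of -0.38 (SE 0.08, edgeR adjusted p = 0.000962). Cxcl14 had 9481, 9691 and 9014 normalized counts, a log2 fold change of -0.60 (SE 0.10, edgeR adjusted p = 6.54e-05), and it fell by 34.2%. The stromal members thus lay lower, and the inducible members higher, than with rmTGF-β1 alone.

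The reverse contrast, rmTGF-β1 added to rmCIRP, gave smaller differences in WT. Of the 6 members 2 passed the test, where 20.5% of all genes did, 10% higher and 10.5% lower. Cxcl10 was lower with both proteins than with rmCIRP alone, with a log2 fold change of -0.73 (SE 0.27, edgeR adjusted p = 0.0718), but the highest library with both, at 6319.8 normalized counts, was above the lowest with rmCIRP, at 6249. This call was lost in 4 of 6 fits that left out 1 library, with a log2 fold change of -0.46 without the third rmCIRP library, and DESeq2 gave an adjusted p of 0.531. Cxcl16 was higher, with a log2 fold change of 0.22 (SE 0.09, edgeR adjusted p = 0.0948), and that call was lost whichever of the 6 libraries was left out. Cxcl12 and Cxcl14 had log2 fold changes of 0.14 and 0.23 with edgeR adjusted p-values of 0.294 and 0.132, although no library with both proteins overlapped a library with rmCIRP alone for either gene or for Cxcl16, as held for 36.4% of all genes. The ratio of summed counts of Cxcl9 was 0.561 (exact 95% interval 0.378 to 0.821, counting error only) and its edgeR adjusted p was 0.201. That of Cxcl11 was 0.993 (0.668 to 1.47).

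Whether the response to rmCIRP differed with rmTGF-β1 present was tested as an interaction in WT fibroblast cultures. No member passed it in edgeR, by DESeq2, or at an unadjusted p under 0.05, where 8 of all genes tested (0.0492%) passed in edgeR, 37 passed by DESeq2 and 917 (5.64%) had an unadjusted p under 0.05. The interaction estimate of Cxcl10 was -0.87 on the log2 scale with a 95% interval of -2.73 to 0.99, so a change of several fold in its response is within the error. For Cxcl12 it was -0.04 (-0.28 to 0.20), for Cxcl14 -0.09 (-0.38 to 0.21) and for Cxcl16 -0.07 (-0.33 to 0.19).

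The next comparisons asked whether the members respond in libraries labelled TLR4-/-. With rmCIRP against PBS, no member passed the edgeR test, and no gene of the 16258 did (0%). At an unadjusted p under 0.05 no member and 1136 genes (6.99%) passed, and DESeq2 called no member and 33 genes. Cxcl10 had 70.1, 57.2 and 252.9 normalized counts with PBS and 48.2, 182.8 and 54.1 with rmCIRP. In each of these conditions 1 library was high, the third with PBS and the second with rmCIRP, and the conditions overlapped. The log2 fold change of Cxcl10 was -0.40 with a 95% interval of -1.54 to 0.74, and it ranged from -1.32 without the second rmCIRP library to 0.59 without the third PBS library. Cxcl9 had 0, 1 and 1 read with PBS and 0, 5 and 0 with rmCIRP, and the library with 5 reads was the one in which Cxcl10 was high. Cxcl11 had 1 read in the 3 PBS libraries together and none in the 3 rmCIRP libraries.

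The more highly expressed members moved little with rmCIRP under that label. Cxcl16 had 2289, 2309 and 2309 normalized counts with PBS and 2302.5, 2083 and 2399.6 after rmCIRP, a log2 fold change of -0.02 (95% interval -0.21 to 0.17). Cxcl12 had 18517, 18944 and 17694 normalized counts with PBS and 18382, 18858 and 18977 with rmCIRP, a log2 fold change of 0.03 (-0.14 to 0.21). Cxcl14 had 9254, 10050.0 and 8884 with PBS and 8934, 7619 and 9431 with rmCIRP, a log2 fold change of -0.11 (-0.32 to 0.10). The conditions overlapped for these 3 genes and for the other members, while 13.7% of all genes had no overlap.

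A contrast of the responses to rmCIRP under the 2 labels was then tested, with the WT log2 fold change subtracted from that in libraries labelled TLR4-/-. Cxcl10, Cxcl16, Cxcl12 and Cxcl14 passed, the first 2 lower and the others higher, where 31.4% of all genes passed, 14.3% lower and 17.1% higher. The difference was -8.29 for Cxcl10 (SE 0.78, edgeR adjusted p = 4.64e-08) and -1.92 for Cxcl16 (SE 0.13, edgeR adjusted p = 2.04e-10). For the stromal genes, which fell with rmCIRP in WT, it was positive, at 0.37 for Cxcl12 (SE 0.12, edgeR adjusted p = 0.0228) and 0.40 for Cxcl14 (SE 0.14, edgeR adjusted p = 0.0421). The Cxcl14 call was lost in 5 of 12 fits that left out 1 library, with differences of 0.30 to 0.49. Cxcl9 and Cxcl11 are not counted here, since the WT libraries with rmCIRP brought them into the test. Cxcl11 had at most 1 read per library in the PBS libraries and in the rmCIRP libraries labelled TLR4-/-.

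**Figure D3:**
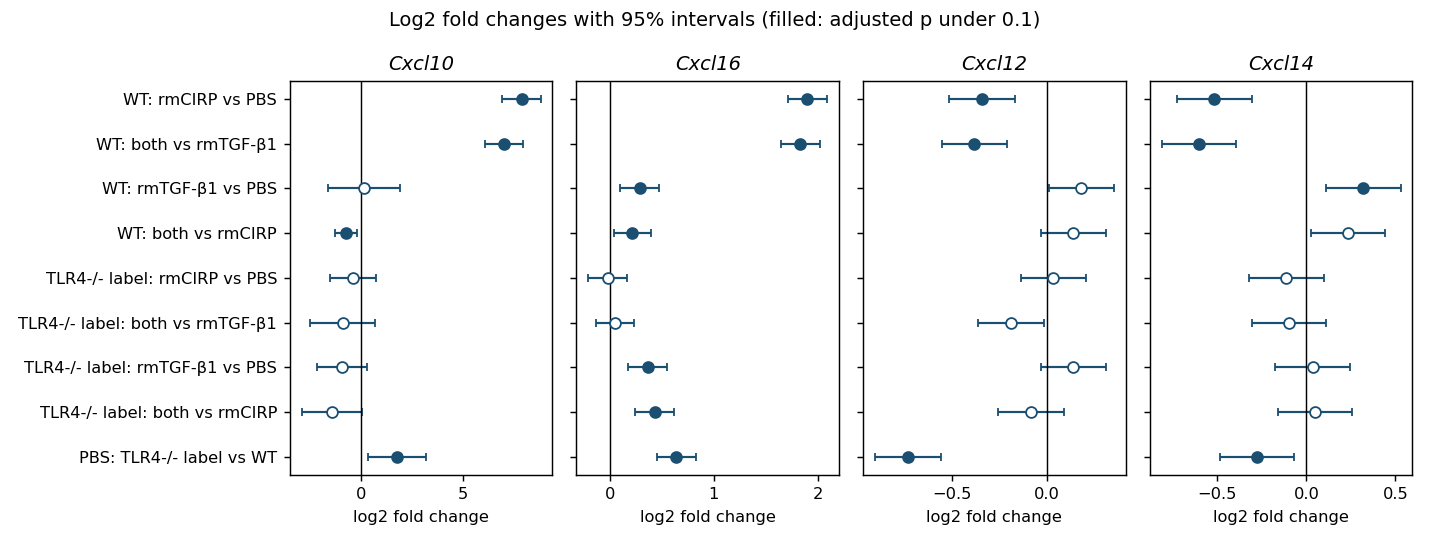
Points give the log2 fold change of Cxcl10, Cxcl16, Cxcl12 and Cxcl14 in 9 comparisons, bars give 95% intervals, and filled points passed an adjusted p under 0.1. The horizontal scales differ between genes. With rmCIRP, Cxcl10 and Cxcl16 lie to the right of 0 and Cxcl12 and Cxcl14 to the left in WT (7.89, 1.90, -0.34 and -0.52), and the 4 intervals include 0 in libraries labelled TLR4-/-.

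With PBS alone, the labels differed for 4 of the 6 members, 2 higher and 2 lower, where 47.1% of all genes differed, 23.2% higher and 24% lower. Cxcl12 was lower in libraries labelled TLR4-/-, with a log2 fold change of -0.73 (SE 0.08, edgeR adjusted p = 2.01e-07), and no library overlapped, as held for 51.7% of all genes. Cxcl16 was higher, with a log2 fold change of 0.64 (SE 0.09, edgeR adjusted p = 5.8e-06), again without overlap. Cxcl14 was lower, with a log2 fold change of -0.28 (SE 0.10, edgeR adjusted p = 0.032), although its libraries overlapped, and the call was lost in 2 of 6 fits that left out 1 library. Cxcl10 was higher, with a log2 fold change of 1.78 (SE 0.68, edgeR adjusted p = 0.0403), but without the third library labelled TLR4-/- the log2 fold change was 0.80 and did not pass. All 13 macrophage markers were higher under that label, with a median log2 fold change of 1.97, while 1 of 10 fibroblast markers was higher and 3 were lower. The part of the macrophage markers in the differences of Cxcl12, Cxcl14, Cxcl16 and Cxcl10 was not tested. Genotype and the pool of lungs cannot be told apart in this design.

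In libraries labelled TLR4-/-, Cxcl16 was the only member to pass with rmTGF-β1 against PBS, where 23.9% of all genes passed, 12.1% higher. Cxcl16 had 3014.5, 2567.5 and 3259 normalized counts with rmTGF-β1, all above the PBS libraries, as held in either direction for 33.8% of all genes, with a log2 fold change of 0.36 (SE 0.09, edgeR adjusted p = 0.00627). Cxcl10 had 40.7, 138.2 and 29.2 normalized counts, with a log2 fold change of -0.94 and a 95% interval of -2.17 to 0.30. Cxcl12 had 21135, 20875 and 18458 normalized counts and Cxcl14 had 9961, 8887 and 9906.5, and neither passed (edgeR adjusted p = 0.276 and 0.856). The difference between the labels in the response to rmTGF-β1 passed in edgeR for no member and for 14 genes (0.0861%). No member passed it at an unadjusted p under 0.05, as 1686 genes (10.4%) did, or by DESeq2, which called 163 genes. Its estimate was 0.08 for Cxcl16 (95% interval -0.19 to 0.34) and -0.29 for Cxcl14 (-0.58 to 0.01).

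With both proteins under that label, Cxcl16 had 2917.5, 2842 and 3421 normalized counts and Cxcl10 had 33.5, 46.3 and 25.8. Cxcl16 rose over rmCIRP alone by 0.43 on the log2 scale (SE 0.09, edgeR adjusted p = 0.0013), the only member to pass, where 32.8% of all genes passed, 17.2% higher. Without the third library with both proteins this rise was 0.35 and still passed. The Cxcl16 libraries did not overlap, as held for 34.5% of all genes. Every Cxcl10 library with both proteins was below every library with rmCIRP alone, with a log2 fold change of -1.44 (SE 0.71) that did not pass in edgeR (adjusted p = 0.148) and passed by DESeq2 (adjusted p = 0.0881). Without the second rmCIRP library, in which Cxcl10 was high, it was -0.51 (edgeR adjusted p = 0.721). Without the third library with both proteins it was -1.26. Against rmTGF-β1 alone no member passed in edgeR or DESeq2, where 2.69% of all genes passed in edgeR, and 1 member, Cxcl12, had an unadjusted p under 0.05, as did 17.9% of all genes. The libraries of each member overlapped, while 13% of all genes had no overlap. Cxcl12 had 20436, 18822 and 13983 normalized counts and Cxcl14 had 10112, 9322 and 7534, and the third library was the lowest for both genes. Without that library the log2 fold change of Cxcl12 against rmTGF-β1 alone went from -0.19 to -0.04, and that against rmCIRP alone from -0.08 to 0.06. Those of Cxcl14 went from -0.10 to 0.02 and from 0.05 to 0.16.

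The order of the conditions by mean normalized count differed between the inducible and stromal members. Cxcl10 was highest in WT with rmCIRP (8854 ± 2781, SD, n = 3), then in WT with both proteins (5358 ± 833), and these neighbours overlapped. A gap to 127 ± 109 in libraries labelled TLR4-/- with PBS followed, and from there down each condition overlapped the next, to 35.2 ± 10.4. Cxcl16 was highest in WT with both proteins (6439 ± 171), then in WT with rmCIRP (5524 ± 178), which did not overlap it. The 4 conditions labelled TLR4-/- followed at 2262 to 3060, where the 2 with rmTGF-β1 overlapped one another, as did the 2 without it, and the 2 pairs did not overlap. WT with rmTGF-β1 came next for Cxcl16 (1802 ± 154) and WT with PBS was lowest (1473 ± 211), without overlap. Cxcl9 and Cxcl11 were clear of the remaining conditions with rmCIRP and with both proteins in WT, and those 2 conditions overlapped for each gene. Cxcl12 ran from 34589 ± 865 in WT with rmTGF-β1 through 30434 ± 1190 with PBS, 26646 ± 642 with both and 24136 ± 892 with rmCIRP, each clear of the next, and the 4 conditions labelled TLR4-/- followed at 17747 to 20156, overlapping one another. Cxcl14 was highest in WT with rmTGF-β1 (14227 ± 1086) and WT with PBS (11357 ± 1303), and the remaining 6 conditions lay between 7970 and 9585 with each overlapping the next.

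Genes that respond to interferon moved with Cxcl10. The interferon-stimulated genes listed were 12, among them Isg15, Ifit1, Rsad2, Mx1 and Gbp2. All 12 rose with rmCIRP in WT, with a median log2 fold change of 6.52 against -0.02 over all genes, where 19.8% rose. All 12 also rose when rmCIRP was added to rmTGF-β1, with a median of 6.33, where 20.5% of all genes rose. The list was written with earlier results of these data known, so this is a description and not a test. None of the 12 passed with rmCIRP in libraries labelled TLR4-/- (median 0.12), where 0% of all genes did. Their summed level per library was 50.4, 54.8 and 52.4 CPM in WT with PBS, 1746, 1392 and 2169 with rmCIRP, and 39.6, 38.1 and 43.7 with rmTGF-β1. With both proteins it was 1222, 1160 and 1460 CPM. The WT rmCIRP libraries thus had the order of their Cxcl10 counts, the third highest and the second lowest. In libraries labelled TLR4-/-, the sum was 62.8, 46.0 and 91.9 CPM with PBS, 47.6, 129.2 and 52.1 with rmCIRP, and 47.3, 104.0 and 30.0 with rmTGF-β1. With both proteins it was 37.5, 34.1 and 43.0 CPM. The 3 libraries in which Cxcl10 stood high under that label, the third with PBS and the second of the rmCIRP and of the rmTGF-β1 condition, also had the highest sum of their condition. With both proteins under that label the order was reversed. Cxcl10 had 33.5, 46.3 and 25.8 normalized counts there, so the second library was highest for Cxcl10 and lowest for the sum. In WT with rmTGF-β1 and in WT with both proteins, the first and second libraries also stood in opposite order. Over the 24 libraries, which fall into 8 conditions, the Pearson correlation of log2 Cxcl10 with the log2 sum was 0.993, and it was 0.911 over the 12 labelled TLR4-/-.

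**Figure D4:**
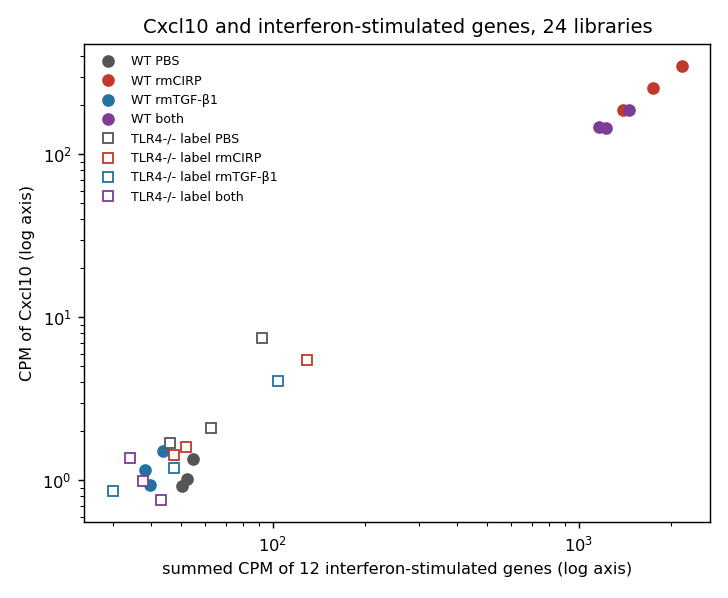
Each point is 1 of 24 libraries, with the summed CPM of 12 interferon-stimulated genes on the horizontal log axis and the CPM of Cxcl10 on the vertical log axis. Filled circles are WT and open squares are libraries labelled TLR4-/-. The 6 WT libraries with rmCIRP lie at 1160 CPM or more, and 3 libraries labelled TLR4-/- lie above the rest of the lower group, at 91.9, 104.0 and 129.2 CPM.

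The factors that carry interferon signals were also measured. Of 15 interferon receptor and signalling genes tested, 13 rose and 1 fell with rmCIRP in WT (median log2 fold change 0.43). Among all genes, 19.8% rose and 24.1% fell. None of the 15 passed with rmCIRP in libraries labelled TLR4-/-, where 0% of all genes did. Irf7, which amplifies type I interferon production, rose by 5.19 on the log2 scale in WT (SE 0.36, edgeR adjusted p = 8.71e-11). The interferon genes listed, Ifnb1, Ifna4 and Ifng, gave almost no reads at 24 h, and other interferon genes were not examined. Ifnb1 had 13 reads over the 24 libraries, at most 3 in any library. Of these, 11 were in the 6 WT libraries with rmCIRP, none in the other WT libraries and the remainder in libraries labelled TLR4-/-. Ifng and Ifna4 had no read in any of the 24 libraries. Of 8 NF-κB subunits and targets, all 8 rose with rmCIRP in WT (median log2 fold change 1.22), where 19.8% of all genes rose. All 8 rose when it was added to rmTGF-β1, where 20.5% of all genes rose. None of the 8 passed with rmCIRP in libraries labelled TLR4-/-, where 0% of all genes did. The signalling and NF-κB lists were also written with earlier results of these data known. When rmTGF-β1 was added to rmCIRP in WT, 3 of the 12 interferon-stimulated genes, 6 of the 15 signalling genes and 5 of the 8 NF-κB genes were lower and none was higher, where 10.5% of all genes were lower. Without the third rmCIRP library, 1 of the 12 interferon-stimulated genes passed. No gene of these lists passed the interaction in WT, where 0.0492% of all genes did. With rmTGF-β1 alone in WT, 4 of the 15 and 1 of the 8 were lower and none of the 12 passed. Adding rmTGF-β1 to rmCIRP under the TLR4-/- label, 4 of the 12 were lower and none was higher. There 4 of the 15 were lower and 2 higher, and 1 of the 8 was lower and 3 higher, where 32.8% of all genes passed.

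The receptors and processing enzymes of the members were measured in the same libraries. Of 7 genes, 3 rose and 1 fell with rmCIRP in WT, where 43.9% of all genes passed, and none passed in libraries labelled TLR4-/-, where 0% did. Cxcr3, the receptor for Cxcl9, Cxcl10 and Cxcl11, had at most 17 normalized counts in any library, and its log2 fold change with rmCIRP in WT was 2.32 (SE 0.72, edgeR adjusted p = 0.0144). Cxcr6, the receptor of Cxcl16, had 45.2, 33.0 and 40.6 normalized counts with PBS and 74.3, 71.0 and 91.9 with rmCIRP, which was a log2 fold change of 0.99 (SE 0.34, edgeR adjusted p = 0.0254). Of the proteases that shed Cxcl16, Adam17 rose by 0.20 (SE 0.03, edgeR adjusted p = 3.97e-05) and Adam10 fell by 0.30 (SE 0.03, edgeR adjusted p = 5.53e-07) on the log2 scale. Markers of T and NK cells, which are known for Cxcr3 and Cxcr6, summed to at most 0.463 CPM in any library, and Cd3e, Cd3d and Prf1 had at most 3 reads in every library.

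Cxcr4, the signalling receptor of Cxcl12, rose with rmTGF-β1. It had 191.5, 226.6 and 211.3 normalized counts in WT with PBS and 399.4, 432.0 and 432.7 with rmTGF-β1, a log2 fold change of 1.00 (SE 0.21, edgeR adjusted p = 0.0047). In libraries labelled TLR4-/- it rose by 1.64 on the log2 scale (SE 0.19, edgeR adjusted p = 2.28e-06). With rmCIRP in WT its log2 fold change was -0.47 and did not pass (edgeR adjusted p = 0.149). Ackr3, which scavenges Cxcl12, had a log2 fold change of -0.12 with rmCIRP in WT (edgeR adjusted p = 0.386). Like Cxcl12, it was lower in libraries labelled TLR4-/- than in WT with PBS, with a log2 fold change of -0.89 (SE 0.10, edgeR adjusted p = 2.64e-07). Of the 7 receptor and enzyme genes it was the only 1 lower in that comparison. Another 5 were higher, where 47.1% of all genes passed. Dpp4, an enzyme that trims Cxcl10 and Cxcl12, had at most 19.1 normalized counts in any library and a log2 fold change of -0.26 with rmCIRP in WT (edgeR adjusted p = 0.731).

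The genes whose pattern was most like that of each member were ranked by Pearson correlation of log2 CPM over the 24 libraries, among about 12310 genes averaging 50 or more normalized counts. For Cxcl10 they were Cmpk2 (r = 0.992), Rsad2 (0.990) and Ifit1 (0.990). For Cxcl9 they were Ifi35, F830016B08Rik and Parp11 (0.952 to 0.954), and for Cxcl11 they were Nos2 (0.986), Ccl5 (0.983) and Daxx (0.982). For Cxcl16 they were Cd40 (0.984), Tnfrsf1b (0.979) and Tent5a (0.975). Cxcl12 was most like B4galt2 (0.983), Pdzrn3 (0.976) and Efemp2 (0.969), and Cxcl14 most like Nbl1 (0.915), Col5a1 (0.911) and Foxs1 (0.892). Among the members, the correlation was 0.966 between Cxcl10 and Cxcl11, 0.945 between Cxcl9 and Cxcl10, 0.842 between Cxcl10 and Cxcl16, and 0.714 between Cxcl12 and Cxcl14. Between Cxcl10 and Cxcl12 it was 0.128, and between Cxcl16 and Cxcl14 it was -0.549. All of these rest on the same 8 conditions and the same libraries, and most of the spread is between conditions. Outside the 6 WT libraries with rmCIRP, Cxcl9 had at most 5 reads and Cxcl11 at most 1 per library. Their correlations therefore mainly set those 6 libraries apart from the rest.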

How the data were processed

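Pulmonary fibroblasts were profiled by RNA-Seq (TruSeq Stranded Total RNA, NextSeq 550). STAR2 and the mouse GENCODE reference were used for alignment, and the authors deposited 1 table of raw HTSeq counts per library, by gene name and not normalized. The submitters' processing notes also name FastQC and the build NCBIM37. The annotation release and strand setting are not given in the sources used here, so no gene positions are taken from the tables. Libraries were grouped by the genotype and treatment in their labels, and none was left out of the main model. The 5 tally lines for unassigned reads, 14.5 to 16.1% of reads, were excluded.

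Counts were tested in R 4.3.3 with edgeR 4.0.16 (filterByExpr, TMM, glmQLFit with a mean for each of 8 conditions over 24 libraries, quasi-likelihood F-tests, Benjamini-Hochberg adjustment). Of 34285 genes with a count, 16258 were tested, and all 6 members passed the filter. The model gave 12 contrasts, with a threshold of 0.1 as in the study's methods. Standard errors were derived from the log2 fold change and its F statistic. Where a gene had almost no reads, a ratio of summed counts with an exact interval is given, or a lower bound against 3 reads. Normalized counts use DESeq2 1.42.0 size factors. Exon lengths and overlaps come from GENCODE M21, and upstream sequences from RefSeq for GRCm38.p6, without the bases after the start. The test was first run on simulated counts with known changes.

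The members, gene lists and tests were chosen with earlier results of these data known. The genes named are the members, the listed genes that a member's result turns on, and the 3 genes most like each member. Another gene of the signalling list is counted with that list but its own values are not reported here. Same-numbered libraries of different conditions did not deviate together (mean correlation 0.012 over 84 pairs, 4 of them over 0.1), so replicate numbers were not treated as pairs. The alternatives were RLE scaling, total counts, no filter, a mean count of at least 10, a replicate block, only the libraries compared, DESeq2, and leaving out each library. Replicate libraries differed beyond counting error in all 24 pairs (chi-square per degree of freedom from 2.58 to 47.8), so none was a copy of another. Intervals on reads cover counting error only.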

Additional observations from a re-analysis of the deposited data

Results flagged for a closer look

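The response to rmCIRP differed between the genotype labels for Cxcl10, Cxcl16, Cxcl12 and Cxcl14, by the test of the difference itself (log2 fold change in libraries labelled TLR4-/- minus that in WT). The difference was -8.29 for Cxcl10 and -1.92 for Cxcl16, and 0.37 for Cxcl12 and 0.40 for Cxcl14. Of all genes tested, 31.4% passed this test. The Cxcl14 call was lost in 5 of 12 fits that left out 1 library. Cxcl11 also had an edgeR adjusted p of 0.0623 for the difference. It reached the test only through the WT rmCIRP conditions in which it is high, it had at most 1 read per library in the other conditions compared, and its adjusted p was 1 without the third PBS library labelled TLR4-/-, so it is given as a value and not as a difference. Each of these sets 6 WT libraries against 6 libraries labelled TLR4-/- whose Tlr4 counts were no lower than those of WT.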

How the results depend on the processing

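The directions of Cxcl10, Cxcl12, Cxcl14 and Cxcl16 with rmCIRP in WT, alone and added to rmTGF-β1, kept their side of the threshold under every alternative run, and no member changed sign outside the fits that left out 1 library. With no filter, the genes called were 198 for the interaction in WT (main 8), 149 for rmCIRP under the TLR4-/- label (main 0), 1580 for both against rmTGF-β1 under that label (main 437) and 563 for the label difference in the rmTGF-β1 response (main 14). Without the filter, members called were 4 for both against rmCIRP in WT (main 2), 1 for the interaction (main 0), and under the label 1 for rmCIRP (main 0), 3 for rmTGF-β1 (main 1), 2 for both against rmTGF-β1 (main 0), 2 for both against rmCIRP (main 1) and 2 for the difference in the rmTGF-β1 response (main 0). The replicate block gave 1, 810 and 22 genes for rmCIRP and for both against rmTGF-β1 under the label and for that difference, and it changed no member call. A mean count of at least 10 gave 23 genes for that difference. With only the libraries compared, counts were 125 for the interaction, 29 for rmCIRP, 0 for both against rmTGF-β1 and 2710 for both against rmCIRP (main 5329) under the label, and 4 members for both against rmCIRP in WT. DESeq2 gave 37, 33, 902 and 163 genes for the interaction, rmCIRP, both against rmTGF-β1 and the rmTGF-β1 difference, 1 member for both against rmCIRP in WT and 2 under the label. The cause of these shifts was not tested. Scaling by total counts moved the higher share of calls from 45.0% to 34.8% for rmCIRP and from 46.5% to 35.8% for rmTGF-β1 in WT, and from 50.8% to 37.9% for rmTGF-β1 and from 58.1% to 74.0% for both against rmTGF-β1 under the label. That scaling called the same number of members in each comparison.

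When 1 library at a time was left out, genes called ranged from 1029 to 1690 for rmTGF-β1 in WT (main 2019), from 2 to 7 for the interaction, from 0 to 9 for rmCIRP, from 2517 to 3783 for rmTGF-β1 (main 3884) and from 0 to 2674 for both against rmTGF-β1 under the label, and from 0 to 119 for the rmTGF-β1 difference. The count for both against rmTGF-β1 was 0 without the first rmTGF-β1 library and 2674 without the first library with both. Members called ranged from 0 to 2 for rmTGF-β1 and from 0 to 1 for both against rmCIRP in WT. Under the label they ranged from 1 to 2 for rmTGF-β1, from 0 to 1 for both against rmTGF-β1 and from 1 to 2 for both against rmCIRP, and they ranged from 2 to 4 for the label with PBS and from 3 to 6 for the difference in the rmCIRP response (main 5 with Cxcl11). The log2 estimates that changed sign were Cxcl10 for rmTGF-β1 in WT (-0.084 to 0.34) and Cxcl16 in the interaction (-0.16 to 0.034). Under the label they were Cxcl10 (-1.32 to 0.59) and Cxcl16 (-0.060 to 0.028) for rmCIRP, Cxcl10 (-1.86 to 0.061) and Cxcl14 (-0.0041 to 0.088) for rmTGF-β1, Cxcl10 (-1.29 to 0.030), Cxcl14 (-0.19 to 0.015) and Cxcl16 (-0.042 to 0.13) for both against rmTGF-β1, and Cxcl12 (-0.19 to 0.064) and Cxcl14 (-0.040 to 0.16) for both against rmCIRP. In the rmTGF-β1 difference they were Cxcl12 (-0.093 to 0.023) and Cxcl16 (-0.028 to 0.17). Depth limits Cxcl9 and Cxcl11, whose changes outside the WT libraries given rmCIRP, alone or with rmTGF-β1, were not detectable at this depth.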
